A study of Mus musculus with 4 samples.

Results

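The small leucine-rich proteoglycans (SLRPs) were compared between GC-2 and GC-1, mouse cell lines that carry the name of testicular germ cells. All non-control probes whose design names Dcn, Bgn, Lum, Fmod, Ogn, Aspn, Prelp, Omd, Kera or Epyc were taken, which gave 14 of the 56605 probes and 10 of the 24813 RefSeq-named genes on the array. The family was picked with the differences between the lines in view, because its genes lay in opposite directions. The levels and differences of these genes are therefore a description, with no test, and there was no threshold of inclusion.

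SLRPs are secreted matrix proteins whose core is built of leucine-rich repeats, and many carry chondroitin, dermatan or keratan sulfate chains. They bind fibrillar collagens and set fibril width and spacing, and several also bind growth factors of the TGF-beta family or engage cell surface receptors. They are best known as products of fibroblasts, chondrocytes, keratocytes and other connective tissue cells, and in the human testis decorin and biglycan are made by the peritubular cells of the tubule wall.

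The 4 arrays held 2 replicates of GC-2 and 2 of GC-1. GC-2 is known as a line made from mouse spermatocytes with SV40 large T antigen plus a p53 allele that is temperature-sensitive, and GC-1 as a line made from type B spermatogonia with the same antigen. Both were untreated, grown in high-glucose DMEM with fetal bovine serum and antibiotics, and collected near confluence. Each line stands for 1 immortalisation event, and nothing in the labels says whether replicates came from separate cultures, so the spread between replicates may be technical. The labels call both lines germ cell lines. Of 10 germ cell markers, only Prm1 (protamine) was well above background on both GC-2 arrays, and Prm1, Ddx4 and Acr were on both GC-1 arrays, while Dazl, Mael, Kit and Dmc1 were on none of the 4. Of 7 fibroblast and stroma markers, 6 were well above background on both arrays of each line, and Thy1 was on none.

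Levels are given as log2 of the processed Cy3 intensity minus the array's own 75th percentile, so a level of 0 is that percentile itself. They compare arrays for 1 probe and not one probe with another. The 75th percentile itself lay at 416 and 199.9 intensity units on GC-2 replicates 1 and 2, against 666 and 693 on GC-1 replicates 1 and 2. The lowest probe called well above background by the scanner software lay at -5.58 and -4.69 on the GC-2 arrays and at -6.19 and -5.92 on the GC-1 arrays, so faint genes were least visible on GC-2 replicate 2. GC-2 and GC-1 arrays lay in different rows of the slide, so line and row cannot be told apart. Over 17437 genes, limma called 7593 different between the lines (43.5%) at an adjusted p of 0.05, with 3150 higher in GC-2 (18.1%) and 4443 lower (25.5%). Those counts rest on all 4 arrays. Without GC-1 replicate 1 they were 1848 and 2530, and the higher count was 2047 without GC-1 replicate 2 and 2005 without GC-2 replicate 2.

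Of the 10 SLRP genes, 6 had a probe well above background on at least 1 array, and 5 (Dcn, Bgn, Fmod, Ogn and Prelp) were above it on both arrays of a line, which was the condition for a fitted difference. Bgn, Fmod and Ogn had both GC-2 arrays above both GC-1 arrays, Dcn had both below, and Prelp overlapped. Over all genes the same separation was seen upward in 34.6% and downward in 43.4%, and since the genes were chosen on this contrast nothing is read from the members' count. The median log2 difference, GC-2 minus GC-1, was 1.87 over the 5 genes and -0.13 over all genes. The value of 1.87 is that of Ogn. The members' median was 0.34 without GC-2 replicate 1, 2.75 without GC-2 replicate 2 and -0.20 with scaling to the E1A spike-in probes, which read control RNA added to the samples. With median centring or quantile normalization 2 members, not 3, lay apart upward. Fmod, Ogn and Prelp had differences small enough to change sign with the scaling, as given with each.

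Dcn encodes decorin, the class I SLRP that binds collagen fibrils and TGF-beta, and it was the member that was lower in GC-2. Its only probe read 555.7 and 453.7 intensity units on GC-2 replicates 1 and 2, against 62010.4 and 99699.8 on GC-1 replicates 1 and 2. Normalised levels were 0.42 and 1.18 in GC-2 and 6.54 and 7.17 in GC-1. Both GC-1 arrays lay far above both GC-2 arrays, with a gap between lines many times the gap within either. The mean was 0.80 ± 0.54 in GC-2 and 6.86 ± 0.44 in GC-1 (SD, n = 2 each), a log2 difference of -6.05 ± 0.37 (limma standard error), or 66.5-fold higher in GC-1. Leaving out each array in turn gave -6.44 to -5.67, and scaling to the E1A spike-in probes gave -8.12. That scaling lowers every difference, in any gene, by 2.07 log2 units, so it turns the sign of any positive difference smaller than that.

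Bgn encodes biglycan, the class I SLRP closest to decorin, which usually carries a pair of glycosaminoglycan chains where decorin carries a single one. Its difference ran in the other direction from that of Dcn. The brightest of 3 probes read 4429 and 1331 intensity units on GC-2 replicates 1 and 2, against 81.8 and 82.0 on GC-1 replicates 1 and 2. Its levels were 3.41 and 2.74 in GC-2 and -3.03 and -3.08 in GC-1, with means of 3.07 ± 0.48 and -3.05 ± 0.04 (SD, n = 2 each). The log2 difference was 6.13 ± 0.30, or 69.8-fold higher in GC-2, and the probe was well above background on all 4 arrays. The size of this difference moved with the processing, at 5.15 after normexp background correction and 4.06 when scaled to spike-in probes. The authors' deposited table gave 2.99, in a row named by gene. That value lay below the differences of all 3 Bgn probes (4.86 to 6.96) and of their mean (5.98). The reason was not tested.

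The other Bgn probes were not well above background on either GC-1 array, so only a bound can be given for them. A probe on an Ensembl transcript read 789.9 and 177.9 units on GC-2 and 5.85 and 8.66 on GC-1, which puts GC-2 at least 86.4-fold higher under the 75th percentile scaling. Another read 37.3 and 17.6 on GC-2 and 1.86 and 2.33 on GC-1, which puts GC-2 at least 5.91-fold higher under the same scaling. Both bounds belong to that scaling, and the log2 differences of 6.96 and 4.86 became 3.79 and 1.67 after normexp correction and 4.89 and 2.79 with E1A scaling. A bound here is the GC-2 mean over the higher of each GC-1 array's lowest detected signal and the probe's own signal. All 3 probes were higher in GC-2, at positions spread along the gene on the X chromosome. Summed levels of testicular somatic cell markers also lay apart between the lines on this scale. Such a sum adds probes of different genes, which levels do not compare. It therefore follows its brightest probe and is no measure of a cell type. The summed level of 5 peritubular myoid markers, in units of each array's 75th percentile, was 29.4 and 36.2 on GC-2 and 10.9 and 10.3 on GC-1. This myoid sum was mostly Acta2, called higher in GC-2 (1.80), as was Tagln (1.24). Myh11 (0.57), Cnn1 (-0.53) and Des (-1.07) were not called. The 4 tested of 5 Leydig cell markers summed to 12.6 and 14.6 on GC-2 and 0.381 and 0.417 on GC-1. For the 4 tested of 5 Sertoli cell markers the sum was 5.27 and 5.72 on GC-2 and 137.0 and 108.8 on GC-1. The Sertoli sum was nearly all Wt1, at 0.48 and 0.78 on GC-2 and 7.09 and 6.75 on GC-1, while Gata4 was called higher in GC-2 (2.20). The Leydig sum on GC-2 was mostly Nr5a1, at 3.45 and 3.58 on GC-2 and -2.72 and -2.62 on GC-1, with Cyp17a1 (3.40) and Star (2.75) also called higher and Cyp11a1 called lower but not above background in GC-2. Of these sets, Amh (Sertoli) and Hsd3b1 (Leydig) were above background on none of the 4 arrays. Their part in the SLRP differences was not tested. The plot of levels by array shows the Dcn and Bgn probes crossing between the lines.

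**Figure D1:**
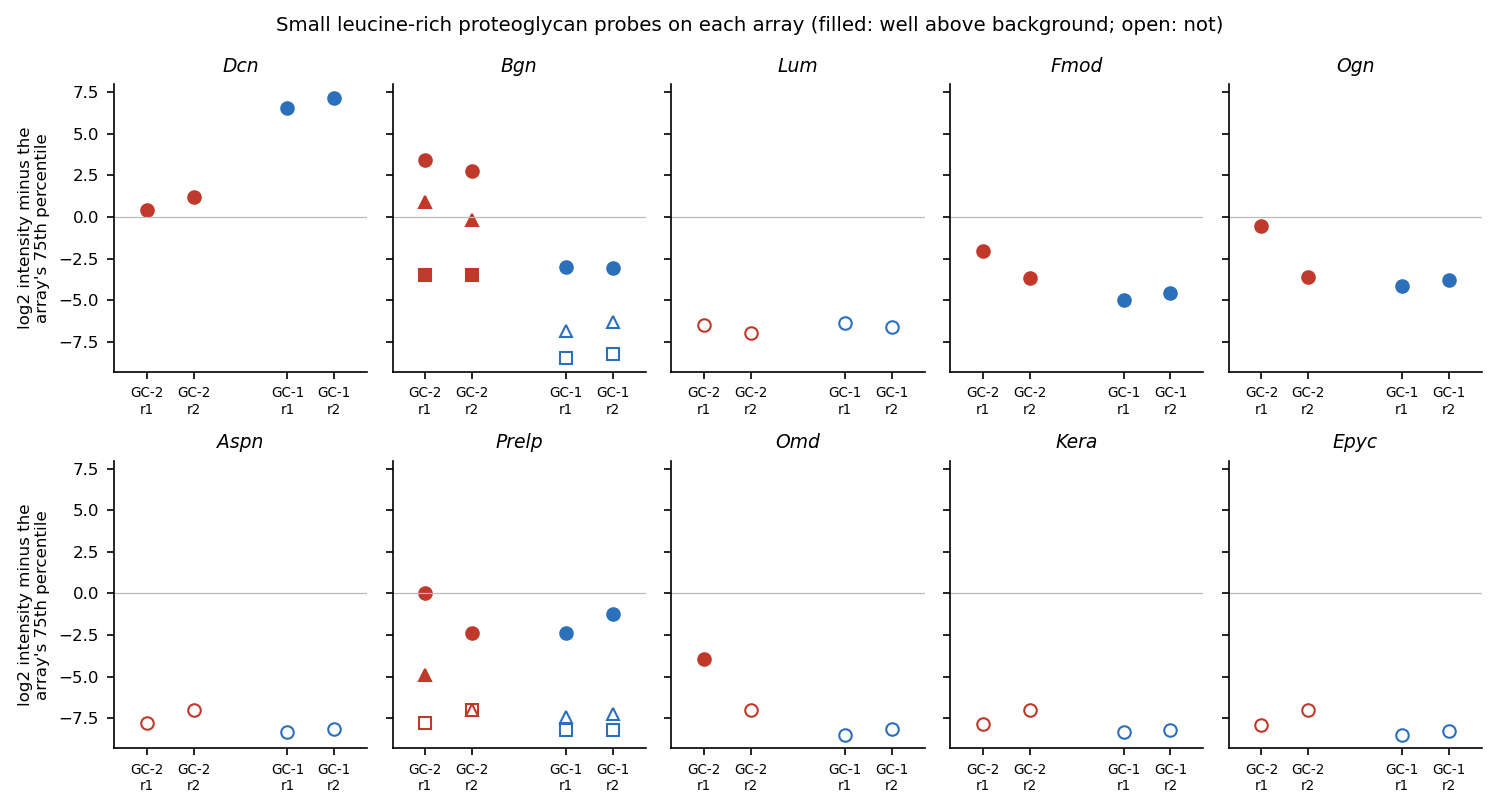
Normalised log2 level (vertical axis, log2 intensity minus the array's 75th percentile) of the SLRP probes on GC-2 replicates 1 and 2 and GC-1 replicates 1 and 2; each point is 1 probe on 1 array, filled where well above background and open where not, with a symbol of its own for each probe of a gene. Dcn sits at 0.42 and 1.18 in GC-2 against 6.54 and 7.17 in GC-1, while the brightest Bgn probe sits at 3.41 and 2.74 in GC-2 against -3.03 and -3.08 in GC-1.

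The probes behind these values show what was measured, and they are given as 60-base designs with their mm9 positions. The Dcn probe lies on chr10:96980233-96980292 (plus strand), the brightest Bgn probe on chrX:70738554-70738613 (plus strand), and a Prelp probe discussed further on, spanning a splice junction, on chr1:135809343-135811065 (minus strand). Capitals mark leucine codons in the only reading frame without a stop, a feature of the repeats that give the family its name. The Dcn probe had 2 such open frames, so none is capitalised there. Its remaining frame was open up to a taa stop near the end of the probe. An open frame under this rule therefore need not be the coding one.
Dcn: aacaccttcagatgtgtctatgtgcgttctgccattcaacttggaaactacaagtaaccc
Bgn: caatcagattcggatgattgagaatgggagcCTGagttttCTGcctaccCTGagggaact
Prelp: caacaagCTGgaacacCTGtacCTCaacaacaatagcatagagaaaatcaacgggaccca
The Bgn and Prelp stretches each held 3 leucine codons. By the same rule the probes of Lum held 5, Omd 4 and Fmod 3, so the count sets neither printed stretch apart. Whether the remaining probes lie in coding or untranslated exons was not analysed here, and none is printed.

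Fmod encodes fibromodulin, a class II SLRP with keratan sulfate chains that binds collagen type I fibrils. Its probe read 101.2 and 15.96 intensity units on GC-2 replicates 1 and 2, against 20.8 and 28.9 on GC-1 replicates 1 and 2. Levels were -2.04 and -3.65 in GC-2 and -5.00 and -4.58 in GC-1. Both GC-2 arrays lay above both GC-1 arrays, but GC-2 replicate 2 was within 1 log2 unit of the higher GC-1 array. The means were -2.84 ± 1.14 in GC-2 and -4.79 ± 0.30 in GC-1 (SD, n = 2 each), and the log2 difference was 1.95 ± 0.55. It was 1.15 without GC-2 replicate 1 and 2.75 without GC-2 replicate 2. Scaled to the spike-in probes it was -0.12.

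Ogn encodes osteoglycin, also called mimecan, a class III SLRP. Its probe read 281.7 and 16.1 intensity units on GC-2 replicates 1 and 2, against 37.0 and 51.0 on GC-1 replicates 1 and 2. GC-2 replicate 1 stood alone at a level of -0.56, with -3.63 on GC-2 replicate 2 and -4.17 and -3.76 on the GC-1 arrays. The log2 difference of 1.87 ± 0.96 rested on GC-2 replicate 1. It was 0.34 without GC-2 replicate 1, 3.40 without GC-2 replicate 2 and -0.20 when scaled to the spike-in probes.

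Prelp encodes a class II SLRP of fibrous connective tissue and cartilage that is known to bind heparan sulfate through a basic N-terminal region. Its brightest probe read 418.1 and 38.2 intensity units on GC-2 replicates 1 and 2, against 126.4 and 291.4 on GC-1 replicates 1 and 2. Levels were 0.01 and -2.39 in GC-2 and -2.40 and -1.25 in GC-1, so the lines overlapped. The log2 difference of 0.63 ± 0.83 was -0.56 without GC-2 replicate 1 and 1.83 without GC-2 replicate 2. It was -1.43 when scaled to the spike-in probes. The authors' deposited table gave -0.64, in a row named by gene. Every Prelp probe had a positive difference here (0.63 to 1.38), though only the brightest was well above background on every array. The reason for the opposite sign was not tested. The splice-spanning Prelp probe printed above was well above background on GC-2 replicate 1 only, at 13.9 and 1.57 units in GC-2 and 3.93 and 4.57 in GC-1, and a further Prelp probe was above background on none.

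Omd encodes osteomodulin, the class II SLRP of bone matrix also called osteoadherin. Its probe was well above background on GC-2 replicate 1 only, at 27.6 and 1.56 units on GC-2 replicates 1 and 2 and 1.84 and 2.48 on GC-1 replicates 1 and 2, so no fold is given. Its level on GC-2 replicate 1, -3.92, lay above -4.69, the faintest detected level on GC-2 replicate 2. Lum (lumican), Aspn (asporin), Kera (keratocan) and Epyc (epiphycan) were not well above background on any of the 4 arrays. Over the 5 member probes above background on none of the 4 arrays the signals ran from 1.56 to 8.11 units. For Lum they were 4.56 and 1.57 on GC-2 and 8.11 and 7.09 on GC-1. Their levels could not be compared at this signal.

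Leaving out arrays moved the members unequally. The brightest Bgn probe stayed between 5.79 and 6.46 and Dcn between -6.44 and -5.67. The differences of Fmod, Ogn and Prelp were lower without GC-2 replicate 1 and higher without GC-2 replicate 2, and that of Prelp changed sign.

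**Figure D2:**
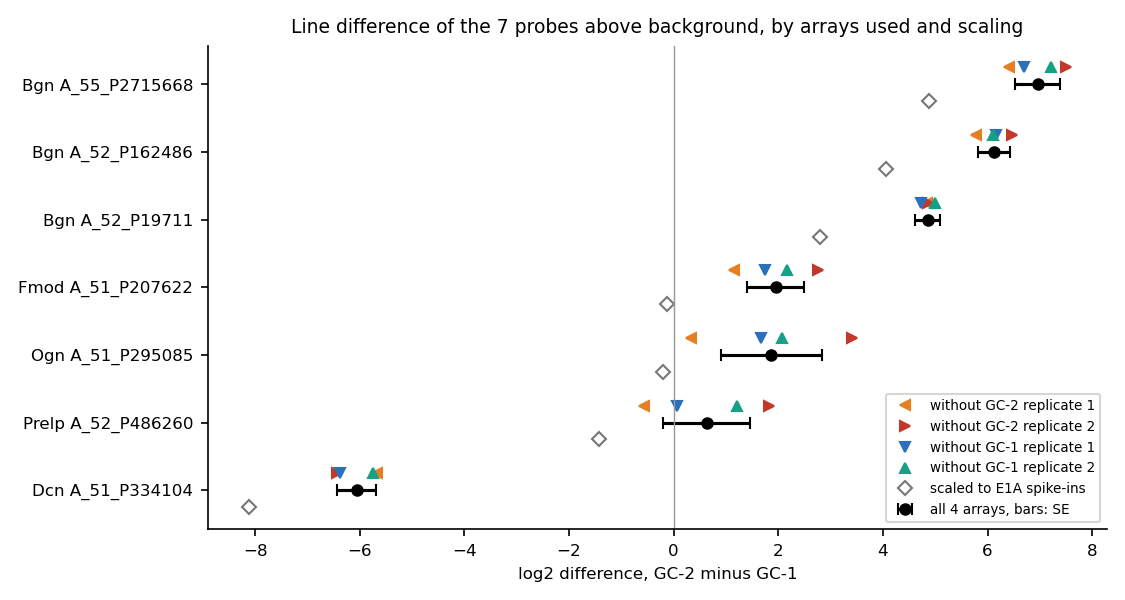
Log2 difference, GC-2 minus GC-1 (horizontal axis), of the SLRP probes with all 4 arrays and with each array left out in turn; black points are all 4 arrays with the limma standard error, triangles leave out 1 array and open diamonds are scaled to the E1A spike-in probes. Ogn runs from 0.34 without GC-2 replicate 1 to 3.40 without GC-2 replicate 2, and Dcn stays between -6.44 and -5.67.

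The 2 GC-2 arrays were compared directly, a measure that the choice of the family did not use. Of the 5 SLRP genes above background on both GC-2 arrays, 4 were higher on GC-2 replicate 1, all but Dcn. Omd and the splice-spanning Prelp probe passed on replicate 1 alone and are not counted. Over 15461 genes above background on both GC-2 arrays the median gap, replicate 1 minus replicate 2, was -0.01, with 48.9% of genes higher on replicate 1. Ogn had a gap of 3.07 on the log2 scale, or 8.39-fold, which ranked 2 from the top. Prelp had a gap of 2.39, or 5.25-fold, and ranked 16. Fmod ranked 71 and Bgn 751, while Dcn ranked 14696. These ranks describe 2 arrays and carry no test. A total of 319 genes had a gap of 1 or more and 407 had a gap of -1 or less. Of the marker sets, fibroblast and stroma had 6 of 6 tested genes higher on GC-2 replicate 1, against 3 of 5 for peritubular myoid, 2 of 4 for Sertoli, 0 of 4 for Leydig and 2 of 3 for germ cell markers. Levels of the 6 tested fibroblast and stroma markers were summed in units of the array's 75th percentile, a sum that follows its brightest probes. The sum was 174.0 and 130.9 on GC-2 and 190.1 and 237.6 on GC-1. It was mostly Col1a1, called lower in GC-2 on its brightest probe (-1.75), and Col1a2 (0.42, not called). Pdgfrb (5.56) and Fbn1 (1.85) were called higher in GC-2, and Pdgfra (0.79) and Col3a1 (0.60) were not called. The part of stromal cells in the gap was not tested, and fewer cells of a type and less RNA per cell cannot be told apart in these bulk samples.

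**Figure D3:**
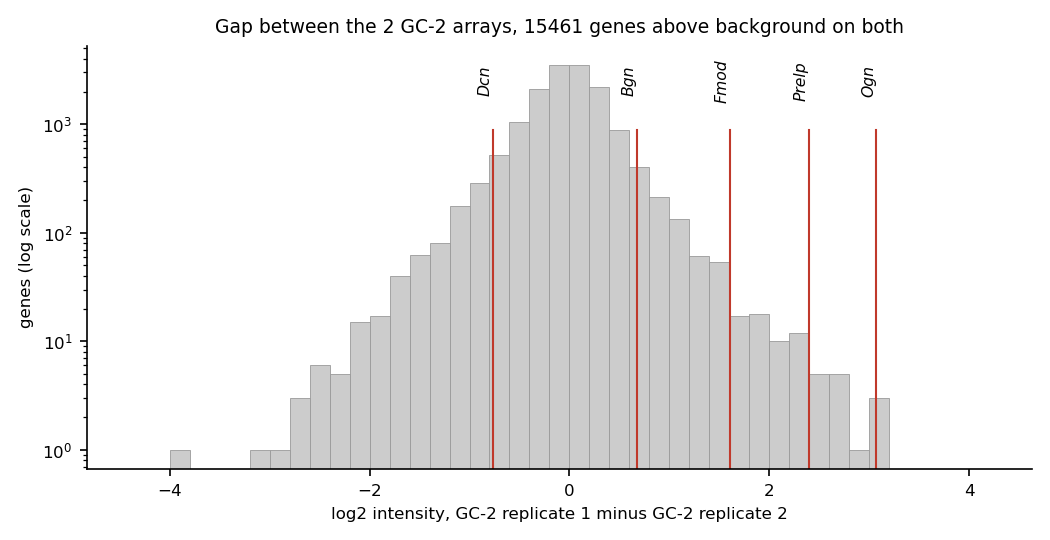
Number of genes (vertical axis, log scale) by the gap between GC-2 replicate 1 and GC-2 replicate 2 in log2 units (horizontal axis), over 15461 genes well above background on both arrays, with a red line at each of 5 SLRP genes. Ogn at 3.07 and Prelp at 2.39 lie at the right edge of the distribution, whose median is -0.01.

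The genes most like each member over the 4 arrays were found by the Euclidean distance between centred log2 levels, over all 17437 genes. For Dcn they were Sowahd (distance 0.11), Rab44 (0.15) and Cyp3a13 (0.16), and for Bgn H2-Q5 (0.13), Efhd1 (0.17) and Nat8f5 (0.21). Fmod lay nearest to Cxcl9 (0.26), Tmem86a (0.34) and Tmem119 (0.39). Ogn lay nearest to Lce3b (0.40), Postn (0.63) and Lce3d (0.79), and Prelp to Col3a1 (0.55), Tprg (0.57) and Krtap1-5 (0.76). Postn (periostin) and Col3a1 (collagen type III alpha chain) are matrix genes. With 4 arrays the distance rests mainly on the line difference and the gap between GC-2 arrays.

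Upstream windows of 250 bases were read from RefSeq for the GRCm38.p6 assembly, and 8 of the 10 members had an entry. They are shown for the 3 members with both GC-2 arrays above both GC-1 arrays, Bgn at chrX:73483351-73483600, Fmod at chr1:134037004-134037253 and Ogn at chr13:49607765-49608014, all on the plus strand. Capitals mark matches to the motifs searched on both strands, which were TATAAA for the TATA box and GGGCGG for the GC box, with TGANTCA for AP-1 and GGAATG for TEAD factors, and lastly CCAAT.
Bgn: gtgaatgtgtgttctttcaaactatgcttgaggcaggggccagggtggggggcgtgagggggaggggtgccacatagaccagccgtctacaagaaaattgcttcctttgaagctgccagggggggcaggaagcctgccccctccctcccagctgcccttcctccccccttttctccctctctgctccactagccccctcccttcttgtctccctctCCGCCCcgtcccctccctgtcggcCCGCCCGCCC
Fmod: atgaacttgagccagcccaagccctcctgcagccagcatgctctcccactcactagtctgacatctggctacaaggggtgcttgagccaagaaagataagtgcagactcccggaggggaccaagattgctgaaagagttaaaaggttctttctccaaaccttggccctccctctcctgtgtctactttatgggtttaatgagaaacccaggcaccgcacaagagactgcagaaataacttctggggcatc
Ogn: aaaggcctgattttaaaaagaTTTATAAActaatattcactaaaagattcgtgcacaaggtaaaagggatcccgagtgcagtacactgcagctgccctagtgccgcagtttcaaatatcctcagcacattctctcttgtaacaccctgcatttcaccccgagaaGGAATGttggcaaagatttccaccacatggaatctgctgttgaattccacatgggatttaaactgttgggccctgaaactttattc
The Bgn window held 3 matches to GGGCGG, the nearest ones overlapping, and had 64.4% G and C, against a median of 52.4% over 32851 windows, of which 32.7% held a GGGCGG. The Ogn window held overlapping matches to TATAAA, far upstream at -229, and 1 match to GGAATG at -86, and had 42% G and C. Over all windows 12.4% held TATAAA and 12.6% held GGAATG, and 6.75% held TGANTCA and 33.9% held CCAAT. The Fmod window held none of the 5 and had 51.2% G and C. These are letter matches and say nothing of binding.

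Protein-coding genes beside the members were listed by their order in the GRCm38 gene table, 16 genes within 2 places of a member or a run of members, of which 12 were tested. Limma called 3 higher and 4 lower in GC-2, over a range of -2.97 to 2.54. Around Bgn on X, Haus7 (1.19 ± 0.24) and Dusp9 (2.54 ± 0.27) were called higher and Atp2b3 was at 0.31, not called. On chromosome 10, Btg1 lay before the run of Dcn, Lum, Kera and Epyc and was at -0.26, not called. Atp2b1, a plasma membrane calcium pump, lay past Epyc at the far end of that run and was lower (-1.27 ± 0.23). On chromosome 1 the run of Optc (called lower), Prelp and Fmod lay beside Btg2 (-2.97 ± 0.26) and Chit1 (1.33 ± 0.25). On chromosome 13, Ecm2 was called lower but was not well above background in GC-2, so no fold is given, and Cenpp (0.00), Nol8 (0.40) and Iars (-0.05) were not called. The Dcn and Bgn differences, at over 6 log2 units, exceeded those of every tested gene beside them. Since the family was picked on this contrast and its neighbours were not, nothing is read from that.

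**Figure D4:**
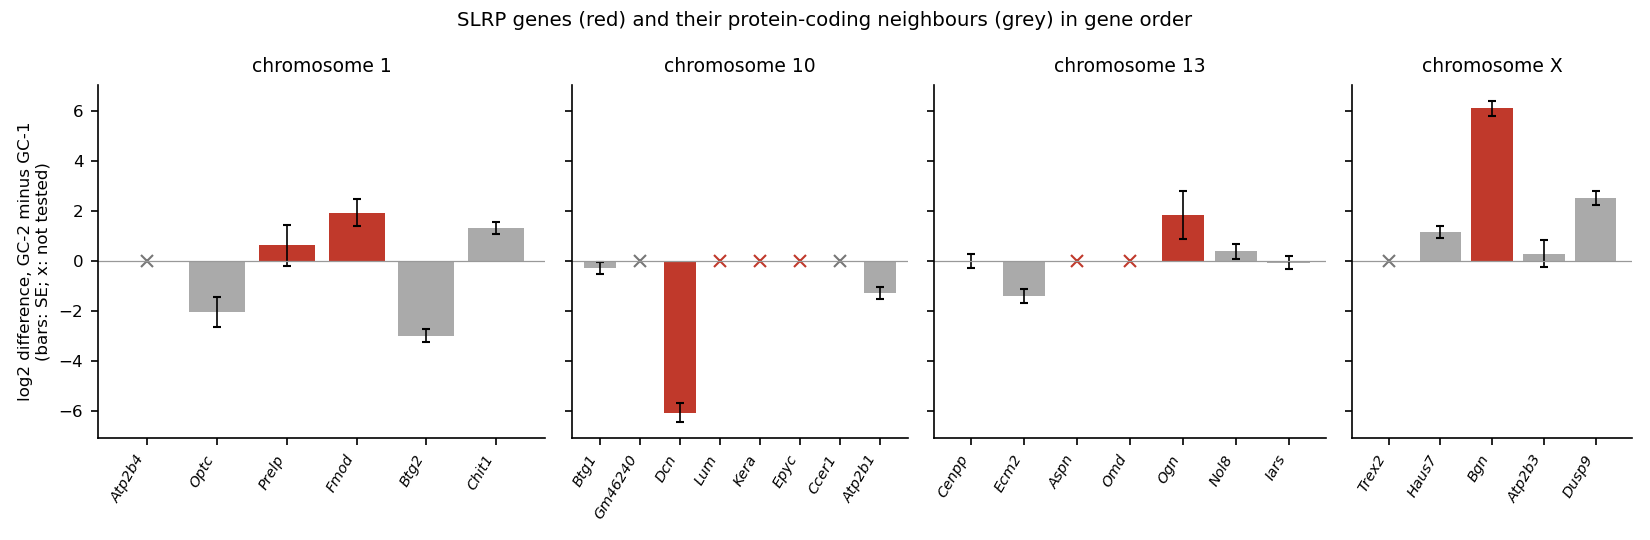
Log2 difference, GC-2 minus GC-1 (vertical axis), of the SLRP genes and the genes beside them in gene order on chromosomes 1, 10, 13 and X; red bars are SLRP genes and grey bars other genes, error bars are limma standard errors, and crosses are genes that were not tested. Bgn is at 6.13 and Dcn at -6.05, in a family picked on this contrast, and the genes beside the members run from -2.97 to 2.54.

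Enzymes and partners of SLRPs were read from 8 lists of 101 genes, which were chosen with earlier results known and are described by counts. Of 88 tested genes, 17 were higher in GC-2 (19.3%) and 33 lower (37.5%), with a median difference of -0.24. Over all genes the shares were 18.1% and 25.5%. Scaled to the spike-in probes the counts were 6 higher and 72 lower. The plot of pathway differences shows the members of each list.

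Among 8 other SLRP and SLRP-like core proteins, 2 were higher and 4 lower. Podnl1, a podocan-like protein, averaged 2.81 ± 0.29 in GC-2 and -1.87 ± 0.62 in GC-1 (SD, n = 2 each), a difference of 4.69 ± 0.37 with an adjusted p of 0.000612 in limma. Podn (podocan) was at -2.54 ± 0.34 log2 units, with an adjusted p of 0.00352. Nyx (nyctalopin) was not well above background in GC-2, and its GC-1 level exceeded that bound at least 5.24-fold. Optc (opticin) was at -2.03 ± 0.60 with an adjusted p of 0.0418, on 1 GC-2 array above background, and the call was lost when GC-1 replicate 1, GC-1 replicate 2 or GC-2 replicate 2 was left out (limma adjusted p-values of 0.0748, 0.196 and 0.138). Chadl (chondroadherin-like) was higher on its brightest probe, with -1.65 on another, and Ecm2 completed the 4 lower genes. Chad (chondroadherin) was at 1.56, not called. After normexp correction Optc was at 0.49, and Nyx (-0.22) and Podn (-0.59) were not called.

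Chains are started on the core by a linkage region, whose 7 genes included 2 higher and 0 lower. Xylt1, a xylosyltransferase that starts the chain, was higher by 1.20 ± 0.23 (adjusted p 0.0102), with -0.87 when scaled to the spike-in probes. Pxylp1, a phosphatase of the linkage xylose, was at 2.70 ± 0.33, but its probes ran from -3.78 to 2.70 and their mean was not called. Of 14 tested genes of chondroitin and dermatan sulfate chains, 3 were higher and 6 lower. The sulfotransferases Chst3 (3.21 ± 0.24, adjusted p 0.000496), Chst15 (3.11 ± 0.45, 0.00433) and Chst11 (2.40 ± 0.26, 0.00166) were higher, and after normexp correction Chst3 was at 2.08 and Chst15 at 2.46. Csgalnact1, which starts chondroitin chains, was lower in GC-2 (GC-1 at least 3.30-fold higher), with a difference of 0.10 after normexp correction. The dermatan 4-O-sulfotransferase gene Chst14 (-1.89) and Dsel (-1.76), an epimerase, were lower.

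Keratan sulfate, the chain of fibromodulin and lumican, had 6 of 8 genes tested, with 0 higher and 4 lower. Chst1, a keratan sulfate galactose sulfotransferase, averaged -0.08 ± 0.36 in GC-2 and 4.64 ± 0.13 in GC-1 (SD, n = 2 each), a difference of -4.72 ± 0.28 (adjusted p 0.000252). B4galt4, a galactosyltransferase, was at -4.42 ± 0.25 (0.000225). B3gnt2 (-1.61 ± 0.35) was called with an adjusted p of 0.0154, and without GC-1 replicate 1, GC-1 replicate 2 or GC-2 replicate 2 its adjusted p was 0.0636, 0.0887 and 0.0540. B4galt1 (-0.88 ± 0.24, 0.0312) was not called without any 1 of the arrays, with adjusted p-values of 0.0720 to 0.111. Of 9 genes of sugar nucleotide and sulfate supply, 0 were higher and 3 lower. Papss2 (-1.25 ± 0.29), which makes the sulfate donor, Slc35b3 (-1.15 ± 0.26), a carrier of that donor, and Ugdh (-0.97 ± 0.24), which makes UDP-glucuronate, had adjusted p-values of 0.0204, 0.0183 and 0.0249. Another Slc35b3 probe was at 0.41, and the mean of that gene's probes (-0.37) was not called. Ugdh was not called without any 1 of the arrays (0.0557 to 0.104), Papss2 without GC-1 replicate 1, GC-2 replicate 1 or GC-2 replicate 2 (0.0651 to 0.0821), and Slc35b3 without GC-1 replicate 2 or GC-2 replicate 2 (0.0812 and 0.0818).

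Of 20 tested core proteins of other proteoglycans, 5 were higher and 6 lower. Prg4 (lubricin) had the largest difference among the lists, at -3.52 ± 0.69 in GC-2 and 5.35 ± 0.42 in GC-1 (SD, n = 2 each), a difference of -8.87 ± 0.41 (adjusted p 0.000141). Gpc4 (glypican 4) was higher at 7.84 ± 0.47 on its brightest probe, with 0.23 on another and only 1 GC-1 array above background. Sdc3 (syndecan 3) was higher by 4.32 ± 0.33 and Gpc2 lower, at -4.86 ± 0.40. After normexp correction Sdc3 was at 2.78, Gpc2 at -2.96, Prg4 at -7.37 and Gpc4 at 4.81. The other genes called higher were Srgn (3.10), the intracellular granule proteoglycan serglycin, Gpc1 (2.10) and Cspg4 (1.79). Of 11 collagens and growth factors that SLRPs bind, 1 was higher and 5 lower. Ccn2 (connective tissue growth factor) was at -4.24 ± 0.36, Tgfb3 at -3.33 ± 0.28 and Bmp4 at -2.61 ± 0.35, while Bmp2 was higher (GC-2 at least 6.04-fold higher). The measured Bmp2 difference of 4.88 was 3.70 without GC-2 replicate 2, 6.06 without GC-2 replicate 1 and 1.63 after normexp correction, and its call was lost without GC-1 replicate 1 (adjusted p 0.0545). Tgfb1 was lower at -1.20. Col1a1, a fibrillar collagen gene, was lower at -1.75 ± 0.31 on its brightest probe, with 0.50 on another, and Col3a1 was at 0.60, not called. Of 13 receptors and processing proteases, 4 were higher and 5 lower. Egfr and P2rx7, receptors that decorin and biglycan are known to engage, were lower at -3.17 ± 0.24 and -3.07 ± 0.26. Tlr4, a receptor of biglycan, was at -3.03 ± 0.38, with 0.34 on another probe, and Igf1r was at -2.13 ± 0.27, not called on the mean of its probes. Met (-1.60), a decorin receptor, was lower too, and the higher genes were Pcolce (1.72), Lrp1 (1.39, with -0.87 on another probe), Tlr2 (1.31) and Lrp6 (1.29). On the authors' deposited log2 values, refitted with limma, the calls of Egfr, Tlr4, Igf1r, Optc, Pxylp1, Xylt1, B4galt1 and Slc35b3 were lost. All of these genes have several probes, and a row named by gene need not hold the probe fitted here. For Optc, though, the authors' difference (-2.07) was near that of the fitted probe. For Xylt1 (0.78), B4galt1 (-0.53), Slc35b3 (-0.42), Tlr4 (-0.88) and Igf1r (-0.81) it was near that of the mean of the gene's probes. Those means were at 0.82, -0.49, -0.37, -0.84 and -0.76. For Egfr (-1.43 against -2.09) and Pxylp1 (1.54 against 0.19) it was not. Scaling to the spike-in probes ended the calls of Pxylp1 and Chst11.

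**Figure D5:**
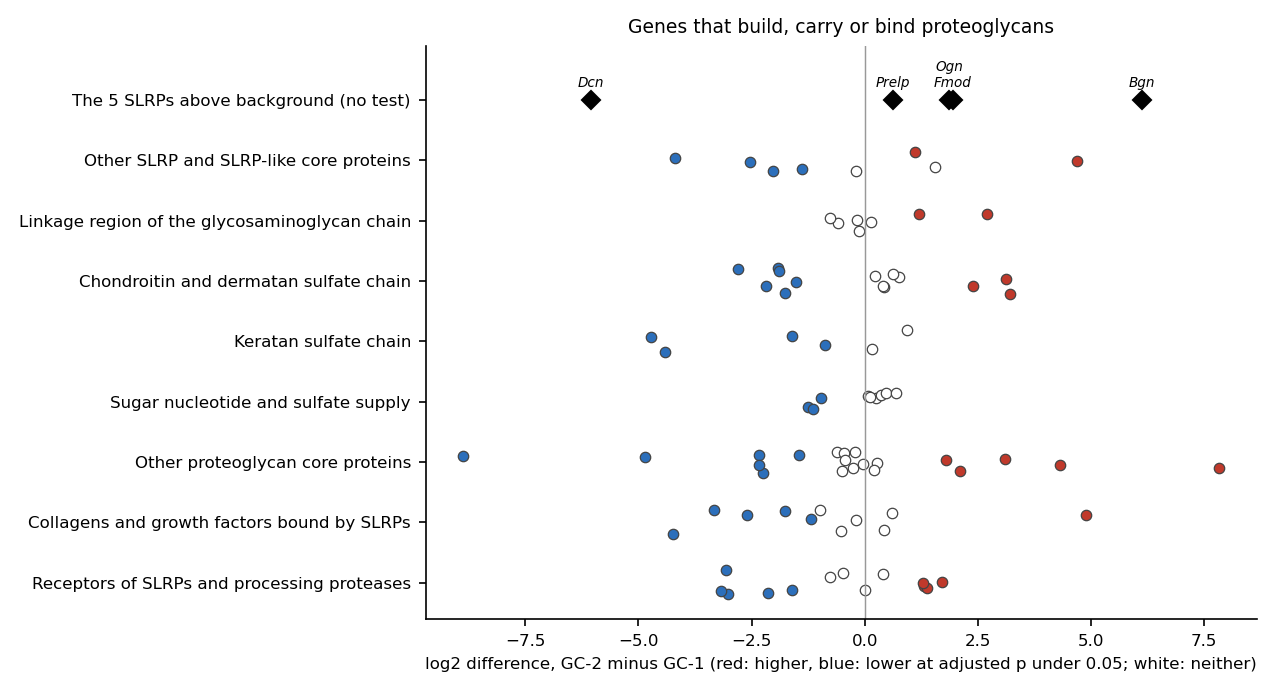
Log2 difference, GC-2 minus GC-1 (horizontal axis), of the tested genes of the 8 lists, 1 point per gene, red where called higher, blue where called lower and white where neither, with the 5 SLRP genes above background as black diamonds in the top row. All lists together hold 17 genes called higher and 33 called lower, and Prg4 at -8.87 and Gpc4 at 7.84 are the extremes.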

How the data were processed

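Total RNA of 2 GC-2 and 2 GC-1 samples was amplified from oligo-dT primers, labelled with Cy3 and hybridised to 1-colour Agilent mouse arrays, per the labels' protocols. The deposited scanner files, from Agilent Feature Extraction 11.5.1.1 per the file headers, hold processed intensity per spot, with flags for signal well above background, and the authors' deposited log2 table holds their own normalised values, whose scaling the labels leave unstated. Its medians were -3.64 and -3.53 for the GC-2 samples and -3.78 and -3.67 for the GC-1 samples. On each array its rows named by probe (381) differed from the log2 intensities by a nearly constant amount (SD 0.0017 to 0.0024). The members' rows were named by gene, so with several probes the value need not be that of the brightest probe. From the intensities, log2 values minus each array's 75th percentile were computed, spots of a probe were averaged and irregular spots and controls left out.

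Probes well above background on both arrays of a line (36692) were fitted with limma 3.58.1 in R 4.3.3, with p-values adjusted by Benjamini-Hochberg over 17437 genes, each represented by its brightest tested probe. Probes were named through RefSeq by accession (32994), symbol (10224) or synonym (520), and 12867 kept the name of the design. Members and lists were chosen with earlier results of these data known. Named genes were the members, up to 4 called genes of each list with the largest difference and the genes behind counts of 5 or fewer, the 2 nearest protein-coding genes on each side of a member, and the 3 genes most like each member. Chad, Col3a1, Chst14 and Dsel were named after their values were seen. The fitting step was tested on simulated data. A total of 13 alternatives were run. Replicate numbers gave the 2 pairs a correlation of deviations of 0.146 over 30316 probes, and nothing says that they mark shared cultures or days. The number of arrays limits the precision, and a p-value reflects no more than the spread among these samples. No value column was left unmapped. The spike-in scaling used 8 E1A probes, which read 2.07 ± 0.45 log2 units higher in GC-2 than in GC-1 (SD over probes).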

Additional observations from a re-analysis of the deposited data

How the results depend on the processing

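The median log2 difference of all genes was -0.13, and 0.15 after normexp, -0.44 with median centring and -2.20 when scaled to the E1A spike-in probes, with 41.5%, 50.3%, 28.0% and 4.11% of called genes higher in GC-2. It was 47.5% in the authors' table and 50.5% with the mean of a gene's probes. With E1A scaling 650 genes were called higher and 15184 lower, the pathway lists had 6 higher and 72 lower, 1 member lay apart upward, and Prelp (-1.43), Fmod (-0.12), Ogn (-0.20) and Xylt1 (-0.87) changed sign, as any positive difference under the uniform shift of 2.07 must. Normexp turned Optc (0.49) and Csgalnact1 (0.10) and moved 11 of 29 named pathway genes by over 1.5-fold. Gpc4 was at 0.23 among probes above background on all 4 arrays. With median centring or quantile normalization 2 members lay apart upward. With no filter 7 members lay apart upward. Those added were Omd and the undetected Aspn, Kera and Epyc. Aspn, Kera and Epyc had lower unscaled intensities on both GC-2 arrays than on either GC-1 array. For Aspn these were 1.87 and 1.57 units on GC-2 and 2.09 and 2.46 on GC-1. They lay upward only after scaling, at signals where levels could not be compared. Under the authors' own values Prelp was at -0.64 and members apart downward numbered 2. Shares of all genes lying apart are given for the main setting only. Leaving out an array gave 1848 to 2423 genes higher and 2530 to 3302 lower, 13 to 17 pathway genes higher and 24 to 30 lower, and 3 to 4 members apart upward with 1 downward, and Prelp from -0.56 to 1.83. With the replicate number as a block, 3201 genes were higher and 4472 lower, and 19 and 33 pathway genes, against 3150, 4443, 17 and 33 without it. The same numbers need not mark pairs, and with 2 pairs the check cannot settle it. The causes were not tested. Signal over background allowed a fitted difference for 5 of 10 members. Omd passed on GC-2 replicate 1 only, and 4 members were well above background on no array.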

Other observations

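The genes with the largest gap between the GC-2 arrays, replicate 1 over replicate 2, were looked at after Ogn and Prelp had been seen to lead it, so they were chosen after their values were seen. Lce3c, a late cornified envelope gene, had a gap of 3.09 log2 units, C1qtnf3 3.03, Cfap161 2.92, Slc14a1, a urea transporter, 2.79, ND6, a mitochondrial gene of respiratory complex I, 2.76, and Aldh1a1, a retinaldehyde dehydrogenase, 2.72. Agt (angiotensinogen) was at 2.62, Bnc1 at 2.61 and Vnn1 at 2.60. Some of these were lower and others higher in GC-2 than in GC-1. Aldh1a1 read 2676 and 195.1 intensity units in GC-2, against 9195 and 11309 units in GC-1. C1qtnf3 read 592.4 and 35.0 units in GC-2, against 8.01 and 7.44 units in GC-1.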
